A study of Rattus norvegicus with 18 samples.

Results

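Glutathione and antioxidant genes were described here across the adrenal glands of 3 rat strains. The 75 genes were chosen by name, among 26583 gene names on the array: names that begin with Gsta, Gstm, Gstp, Gstt, Gstk, Gsto, Mgst, Gpx, Prdx, Txn, Sod or Glrx, together with Gclc, Gclm, Gss, Gsr, Ggt1, Cat, Nqo1, Hmox1, Hmox2, Srxn1, Nfe2l2 and Keap1. The rule uses names only, and each gene was represented by its brightest probe over the 18 arrays. Total RNA of adrenal glands of untreated rats was measured on 18 one-colour arrays, 3 for each of 6 groups: stroke-prone spontaneously hypertensive rats (SHRSP), spontaneously hypertensive rats (SHR) and normotensive Wistar Kyoto rats (WKY), each at 6 and at 3 weeks of age. SHR and SHRSP are inbred strains that develop high blood pressure, and WKY is the strain they are usually set against. The labels name whole adrenal glands with no split into cortex and medulla, and call the 3 arrays of a group biological replicates; the sources used here give neither the sex of the rats nor any pooling of glands. The p-values therefore measure the spread between these arrays.

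Cells keep reactive oxygen in check with a few linked systems. Superoxide dismutases turn superoxide into hydrogen peroxide, which catalase, glutathione peroxidases and peroxiredoxins remove. For the peroxidases and peroxiredoxins, glutathione, thioredoxin and their reductases supply the electrons from NADPH. Glutathione S-transferases couple glutathione to reactive compounds, and the transcription factor Nrf2 (Nfe2l2), held down by its partner Keap1, switches many of these genes on through the antioxidant response element. In the adrenal cortex the mitochondrial cytochromes P450 that make steroids leak electrons, and in the medulla monoamine oxidases form hydrogen peroxide from catecholamines, so the gland is known for high antioxidant enzyme content.

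Values are log2 of a gene's signal over the array's 75th percentile, so that a difference of 1 is a 2-fold difference. A gene was called where its adjusted p over all tested genes was under 0.05. Of the 75 genes, 69 had some group in which all 3 arrays read well above background, and these were tested as part of the 20835 genes that met the same condition. The other 6 (Ggt1, Gpx5, Gstm3, Txndc2, Txndc3 and Txndc8) were below that in every group and were not tested. Of these 69 genes, 66 were well above background on all 18 arrays, as were 18326 of the 20835. The exceptions among the 69 were Gpx2 on 8, Gsta2 on 10 and Gstm6 on 14. The part of brightness in the shares of genes called below was not tested. Some array names are old: the file's Gsta3 is now Gsta1, its Gsta5 is Gsta3, Glrx1 is Glrx, and Txndc1, Txndc4 and Txndc13 are Tmx1, Erp44 and Tmx4 in RefSeq. Txnl4b belongs to the spliceosome and was included by its name. The Gstt1 and Gstt3 probes share a listed transcript accession, so signals of the 2 genes may not be fully separate.

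The arrays labelled SHR and SHRSP exchanged their places between the ages for many genes of large strain difference. Over all tested genes, 25 were called at both ages with a SHRSP over SHR difference of at least 4-fold, and 22 of them had opposite signs at the 2 ages. Among the 100 genes called at both ages with at least 2-fold, 69 had opposite signs, and among all 733 called at both ages, 345 did. Agtrap, an angiotensin receptor partner chosen after its values were seen, differed by 5.35 at 6 weeks and by -4.86 at 3 weeks (log2, SHRSP over SHR), and Ephx2, an epoxide hydrolase chosen the same way, by 4.75 and -3.35. An exchange of the 2 labels at 1 age and a strain difference that turns with age cannot be told apart in these data. Group names below are those of the labels. A difference from WKY that both hypertensive strains share at 1 age does not depend on which is which, while age changes do. An exchange at 6 weeks would swap the SHRSP and SHR values against WKY at that age, and the called age changes of the genes given by array, on their brightest probes and apart from Gsta2, are also given with the labels so exchanged.

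Marker genes were summed as multiples of the array's 75th percentile. All 10 steroid-cortex markers were well above background on every array. Their sum ran from 921 to 983 in SHRSP, 998 to 1070 in SHR and 857 to 960 in WKY glands at 6 weeks. At 3 weeks it ran from 1054 to 1188 in SHRSP, 970 to 1018 in SHR and 926 to 977 in WKY glands. SHR at 6 weeks and SHRSP at 3 weeks thus lay above WKY on every array, and the other 2 comparisons with WKY overlapped. The 11 chromaffin-cell markers, of which at least 10 were well above background on all 3 arrays of every group, summed to 123 to 153 in SHRSP, 128 to 151 in SHR and 76.9 to 84.3 in WKY glands at 6 weeks. At 3 weeks the sums were 141 to 158 in SHRSP, 119 to 123 in SHR and 93.4 to 101 in WKY glands, so both hypertensive strains lay above WKY at both ages. The 10 fat markers summed to 49.2 to 71.1 in SHRSP, 36.4 to 54.9 in SHR and 49.7 to 112 in WKY glands at 6 weeks, and to 64.0 to 116, 71.8 to 148 and 42.4 to 84.9 in SHRSP, SHR and WKY glands at 3 weeks. The 4 red-cell markers summed to 111.3 to 151.7 in SHRSP, 126.4 to 130.4 in SHR and 152.4 to 175.3 in WKY glands at 6 weeks. At 3 weeks they summed to 165 to 204 in SHRSP, 175 to 191 in SHR and 184 to 212 in WKY glands. The 8 macrophage markers summed to 4.35 to 5.82 in SHRSP, 4.34 to 5.22 in SHR and 3.59 to 5.06 in WKY glands at 6 weeks. At 3 weeks they summed to 3.27 to 3.76 in SHRSP, 3.07 to 3.37 in SHR and 2.75 to 2.92 in WKY glands. The 12 kidney markers summed to at most 0.603. Liver transcripts (10 markers without Serpinc1) reached 94.3 on SHR replicate 2, 2.70 on SHR replicate 3 and 3.31 on SHRSP replicate 2 at 3 weeks, and at most 0.721 on the other 15 arrays. Serpinc1 was left out of that sum because it was high in both WKY groups and differed between SHR and SHRSP in opposite directions at the 2 ages, by 9.63 at 6 weeks and -8.47 at 3 weeks. The part of these cell types in the differences below was not tested, and fewer cells of a type and less RNA per cell cannot be told apart in whole glands.

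With the scaling used here, more antioxidant genes were called higher than lower against WKY in both hypertensive strains at both ages. The lean was narrow in SHR at 3 weeks, with 9 higher and 6 lower. All tested genes also leaned higher in SHR at 6 weeks and in SHRSP at 3 weeks. In SHRSP at 6 weeks, 24 of the 69 genes were called (34.8%), 18 higher and 6 lower, where 23.9% of all tested genes were called, 11.1% higher and 12.8% lower. In SHR at 6 weeks, 27 were called (39.1%), 23 higher and 4 lower, where 29.2% of all tested genes were called, 16.2% higher and 13.0% lower. In SHRSP at 3 weeks, 30 were called (43.5%), 22 higher and 8 lower, where 26.2% of all tested genes were called, 14.8% higher and 11.4% lower. In SHR at 3 weeks, 15 were called (21.7%), 9 higher and 6 lower, where 18.2% of all tested genes were called, 9.02% higher and 9.21% lower. The median log2 difference of the 69 genes was 0.13 and 0.20 in SHRSP and SHR at 6 weeks, against -0.01 and 0.09 over all genes. At 3 weeks the medians in SHRSP and SHR were 0.19 and 0.12, against 0.09 and -0.01 over all genes. The split depends on the scaling: quantile normalization called 17 higher and 6 lower in SHR at 6 weeks and 12 higher and 9 lower in SHRSP at 3 weeks, and scaling to the array median called 9 higher and 8 lower in SHRSP at 3 weeks. Without the 3 arrays of raised liver transcripts, which leaves 1 SHR array at 3 weeks, the counts at 3 weeks were 14 for SHRSP and 2 for SHR, these 2 being Gstt3 and Glrx2. With the slide as a fixed block, 29 and 34 were called in SHRSP and SHR at 6 weeks and 33 and 27 at 3 weeks. Here and below, counts under other fits stand without the share of all genes called in the same fit. Their moves are therefore not read as particular to these genes. Every called difference kept its sign within each slide that held both groups. These slides hold the arrays that made the calls, and at 6 weeks each comparison with WKY had only 1 such slide.

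**Figure D1:**
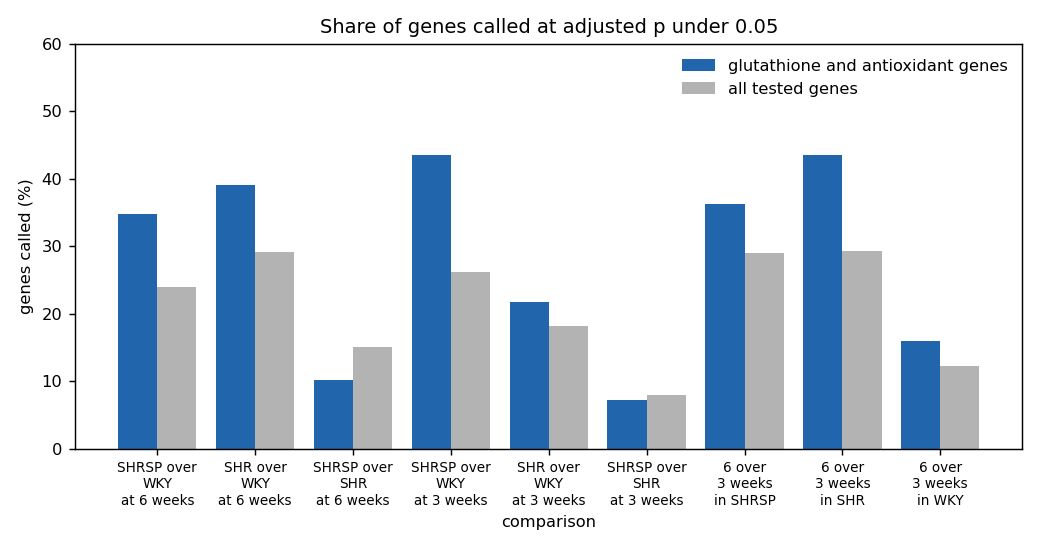
Percentage of genes called at an adjusted p under 0.05 in each of the 9 pairwise comparisons, with blue bars for the 69 glutathione and antioxidant genes and grey bars for all tested genes. The blue bar is the higher one in every comparison with WKY and for each age change. It is the lower one for SHRSP over SHR at both ages (10.1% at 6 weeks and 7.25% at 3 weeks). Some bars are close, as for SHR over WKY at 3 weeks (21.7% against 18.2%) and age in WKY (15.9% against 12.3%). The order of the bars is not read as particular to these genes.

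Of the 69 genes, 49 were called in at least 1 of the 9 pairwise comparisons, against 63.0% of all tested genes, and 9 were called with at least a 2-fold difference, against 16.3% of all tested genes. Those 9 were Gstt3, Srxn1, Glrx1, Txnrd3, Mgst2, Nqo1, Sod3, Gstm2 and Gsta2. Glrx1, Glrx5, Gpx8, Gstt3 and Txnl1 were higher than WKY in both strains at both ages, a pattern met by 5 of the 69 genes and by 3.07% of all genes. Gclc was lower in all 4 of these comparisons, as were 2.83% of all genes. These 4 comparisons share their WKY arrays within each age.

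**Figure D2:**
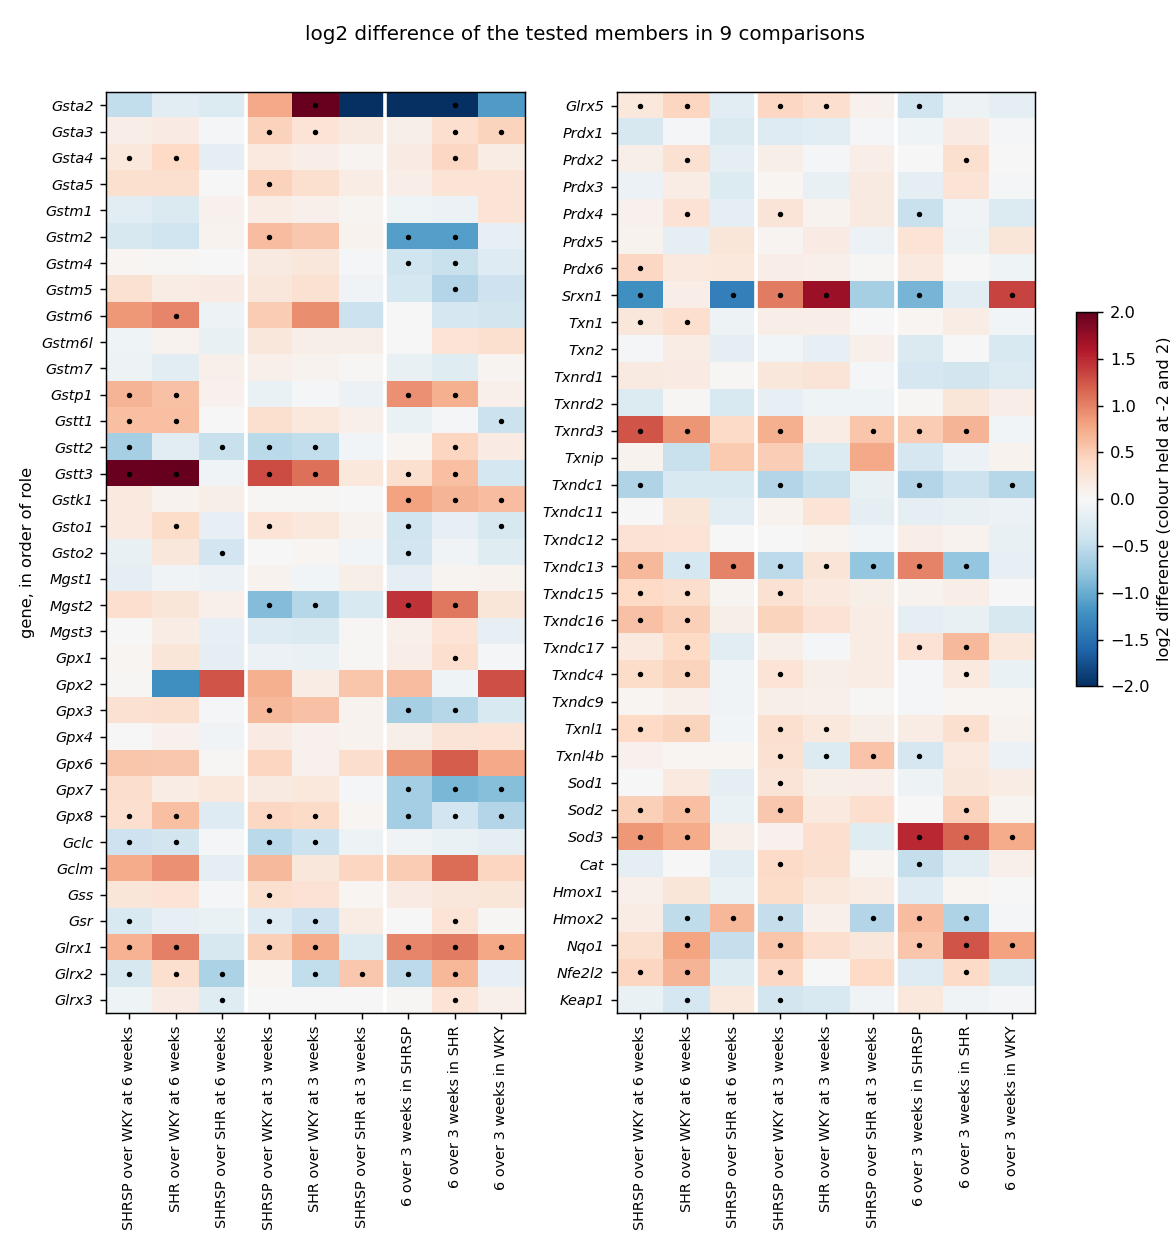
Log2 differences (colour, red higher and blue lower, held at -2 and 2) of the 69 tested genes in rows, in order of role, for the 9 pairwise comparisons in columns; a dot marks an adjusted p under 0.05. Gstt3 is red and dotted in all 4 comparisons with WKY, Gclc is blue and dotted in the same 4, and Txndc13 and Hmox2 change colour between SHRSP over SHR at 6 and at 3 weeks.

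Among the glutathione S-transferases, the theta-class enzyme Gstt3 was higher than WKY in both hypertensive strains at both ages. At 6 weeks, Gstt3 read 3.01, 3.01 and 2.83 in SHRSP glands, 3.04, 3.09 and 2.94 in SHR glands and 1.07, 0.69 and 1.16 in WKY glands. The 3-week Gstt3 values were 2.60, 2.53 and 2.74 in SHRSP glands, 2.55, 2.36 and 2.34 in SHR glands and 1.28, 1.42 and 1.28 in WKY glands. Every SHRSP and SHR array lay above every WKY array at both ages. The log2 difference from WKY was 1.97 ± 0.11 (adjusted p = 5.1e-08) in SHRSP and 2.05 ± 0.11 (adjusted p = 3.5e-08) in SHR at 6 weeks, and 1.30 ± 0.11 (adjusted p = 2.5e-06) in SHRSP and 1.09 ± 0.11 (adjusted p = 1.7e-05) in SHR at 3 weeks (SE, n = 3 arrays per group). A second Gstt3 probe gave 2.05 and 2.13 for SHRSP and SHR at 6 weeks, and 1.15 and 1.04 at 3 weeks. These 4 calls held under each of the 30 other fits of the same samples or subsets of them. Gstt1, the neighbouring theta-class gene by name, was higher at 6 weeks by 0.61 ± 0.12 in SHRSP and 0.61 ± 0.12 in SHR, and its 3-week differences of 0.31 and 0.21 were not called. Gstt2, also of the theta class, was lower in SHRSP at 6 weeks (-0.66 ± 0.13) and at 3 weeks (-0.54 ± 0.13). It was also lower in SHR at 3 weeks (-0.49 ± 0.13), and all 3 differences were called. The SHR call was lost without SHR replicate 2 or 3 or WKY replicate 2. Without the 3 arrays of raised liver transcripts, which leaves 1 SHR array at 3 weeks, that SHR difference was -0.22.

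The 250 bases upstream of the annotated start are shown for 4 genes from RefSeq: Gstt3 and Srxn1, which had the largest called differences from WKY apart from Gsta2, and Gstp1 and Sod2, which were higher in both hypertensive strains at 6 weeks and hold a match to the antioxidant response element. Both motifs were chosen after the values were seen. Capitals mark matches on either strand to the core of that element, TGACNNNGC, or to the AP-1 site TGAGTCA; where the 2 overlap, as in Gstp1, the capitals cover both.
Gstt3, GRCr8 chr20:12874368-12874617 (+): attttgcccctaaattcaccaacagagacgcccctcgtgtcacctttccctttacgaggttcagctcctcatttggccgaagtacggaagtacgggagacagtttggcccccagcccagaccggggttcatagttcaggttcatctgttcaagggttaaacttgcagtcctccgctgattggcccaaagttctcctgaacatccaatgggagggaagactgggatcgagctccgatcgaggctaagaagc
Srxn1, GRCr8 chr3:161064562-161064811 (+): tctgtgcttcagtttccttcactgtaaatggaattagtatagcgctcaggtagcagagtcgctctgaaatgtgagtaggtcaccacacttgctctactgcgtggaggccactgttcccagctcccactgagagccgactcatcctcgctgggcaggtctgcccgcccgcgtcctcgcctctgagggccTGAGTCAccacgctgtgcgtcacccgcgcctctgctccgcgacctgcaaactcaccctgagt
Gstp1, GRCr8 chr1:210769706-210769955 (-): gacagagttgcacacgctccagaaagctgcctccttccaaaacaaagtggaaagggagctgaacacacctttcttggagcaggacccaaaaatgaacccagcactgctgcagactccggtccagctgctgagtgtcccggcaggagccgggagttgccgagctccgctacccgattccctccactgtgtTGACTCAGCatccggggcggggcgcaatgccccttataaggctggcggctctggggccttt
Sod2, GRCr8 chr1:50050169-50050418 (-): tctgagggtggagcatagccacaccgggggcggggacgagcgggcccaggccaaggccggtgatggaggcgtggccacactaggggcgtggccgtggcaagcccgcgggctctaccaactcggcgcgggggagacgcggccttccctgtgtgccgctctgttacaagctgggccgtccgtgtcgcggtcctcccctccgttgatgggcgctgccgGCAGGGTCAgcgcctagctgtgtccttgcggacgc

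The Gstt3 window held neither motif, the Srxn1 window held 1 AP-1 match, the Gstp1 window 1 run that matches both, and the Sod2 window 1 core match. The window of Nqo1, which is not shown, held neither motif. RefSeq promoters were found for 64 of the 75 genes, with 74 promoters in all. The element's core was present in 11 of them (14.9%), those of Gclm, Gpx2, the file's Gsta5, Gstm5, Gstm7, Gstp1, Hmox2, Prdx1, Sod2, Txndc11 and Txnrd1, against 10.1% of all 33469 rat promoters of the same length. The AP-1 site was present in 5 (6.76%), those of Glrx1, Gstm5, Gstp1, Prdx1 and Srxn1, against 4.05% of all. A match is a description of these letters and says nothing about binding.

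Gstp1, the pi-class transferase, was higher in both hypertensive strains at 6 weeks, by 0.68 ± 0.12 (adjusted p = 0.00063) in SHRSP and 0.59 ± 0.12 (adjusted p = 0.0017) in SHR, and its differences of -0.13 and -0.02 at 3 weeks were not called. Gsta4, which handles lipid aldehydes, was higher at 6 weeks by 0.21 ± 0.07 and 0.40 ± 0.07 in SHRSP and SHR, the SHRSP call being lost without any 1 array of SHRSP or WKY at 6 weeks. The file's Gsta3, an alpha-class enzyme, was higher at 3 weeks by 0.45 ± 0.08 in SHRSP and 0.27 ± 0.08 in SHR. The file's Gsta5 was called in SHRSP at 3 weeks alone (0.47 ± 0.12), and its second probe read 0.69 there and 1.29 in SHR, where the brighter probe read 0.31. The omega-class gene Gsto1 was higher in SHRSP at 3 weeks (0.27) and in SHR at 6 weeks (0.36). Of all 18 soluble transferases tested, calls against WKY were 4 higher and 1 lower in SHRSP and 6 higher and 0 lower in SHR at 6 weeks, and 5 higher and 1 lower in SHRSP and 3 higher and 1 lower in SHR at 3 weeks. Over all genes the shares were 11.1% higher and 12.8% lower in SHRSP and 16.2% and 13.0% in SHR at 6 weeks, and 14.8% and 11.4% in SHRSP and 9.02% and 9.21% in SHR at 3 weeks.

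Gstm1, the mu-class transferase that conjugates many electrophiles, was called in no comparison. At 6 weeks, Gstm1 read 0.42, 0.95 and 0.57 in SHRSP glands, 0.46, 0.62 and 0.62 in SHR glands and 0.99, 0.89 and 0.70 in WKY glands. The 3-week Gstm1 values were 0.80, 0.72 and 0.66 in SHRSP glands, 0.72, 0.78 and 0.54 in SHR glands and 0.52, 0.64 and 0.58 in WKY glands. SHRSP overlapped with WKY at 6 weeks and SHR with WKY at 3 weeks, and in the other 2 comparisons with WKY the groups were narrowly apart. Gstm2, of the same class, changed with age in both hypertensive strains. Its 6-week Gstm2 values were -3.37, -3.22 and -4.0 in SHRSP glands, -3.54, -3.84 and -3.42 in SHR glands and -2.90, -3.21 and -3.49 in WKY glands. Its 3-week Gstm2 values were -2.45, -2.40 and -2.42 in SHRSP glands, -2.75, -2.19 and -2.55 in SHR glands and -3.06, -3.12 and -2.96 in WKY glands. SHRSP and SHR arrays at 6 weeks lay below every array of the same strain at 3 weeks, with a log2 difference of -1.10 ± 0.20 (adjusted p = 0.00089) in SHRSP and -1.10 ± 0.20 (adjusted p = 0.0010) in SHR, while the change in WKY was -0.16 and not called. With the labels exchanged at 6 weeks, the Gstm2 change was -1.17 for the arrays labelled SHRSP at 3 weeks and -1.03 for those labelled SHR, both called, and the SHR call as labelled was lost without the 3 arrays of raised liver transcripts. At 3 weeks Gstm2 was higher in SHRSP than in WKY by 0.62 ± 0.20, a call that was lost without any 1 array of the 2 groups, with the array median and under quantile normalization (0.56).

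Gsta2, an alpha-class transferase that is abundant in liver, was highest on the array with the most liver transcripts. At 6 weeks, Gsta2 read -8.52, -8.16 and -7.84 in SHRSP glands, -7.93, -7.76 and -8.01 in SHR glands and -7.82, -7.02 and -8.23 in WKY glands, with no array of SHRSP or SHR well above background and 2 of WKY. The 3-week Gsta2 values were -5.82, -4.90 and -6.68 in SHRSP glands, -4.94, 0.52 and -4.73 in SHR glands and -7.11, -7.08 and -5.49 in WKY glands. Albumin (Alb) on the 3-week arrays read -2.32, 0.83 and -1.77 in SHRSP, -3.09, 5.47 and 0.50 in SHR and -3.49, -3.43 and -2.16 in WKY glands. SHR replicate 2 held the highest value of both genes. The SHR over WKY difference at 3 weeks was 3.51 ± 1.05 (adjusted p = 0.032), and 1.62 and not called without the 3 arrays of raised liver transcripts. Its call was also lost without WKY replicate 1 or 2 at 3 weeks. In SHR, Gsta2 was at least 21.2-fold lower at 6 than at 3 weeks (adjusted p = 0.0036), a bound that rests on the mean with SHR replicate 2. Gsta2 met the condition for testing only in SHR and SHRSP at 3 weeks, where it was high. The filter thus used the same readings as both calls and favours them, so their p-values are no independent support.

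The membrane-bound transferase Mgst2, which also makes leukotriene C4, was lower than WKY at 3 weeks and was not called at 6 weeks. At 6 weeks, Mgst2 read 4.16, 4.07 and 3.97 in SHRSP glands, 4.30, 3.63 and 3.98 in SHR glands and 3.88, 3.47 and 3.83 in WKY glands. The 3-week Mgst2 values were 2.48, 2.67 and 2.71 in SHRSP glands, 3.08, 2.86 and 2.81 in SHR glands and 3.45, 3.62 and 3.38 in WKY glands. All SHRSP and SHR arrays lay below all WKY arrays at 3 weeks, at 6 weeks SHR overlapped with WKY and SHRSP lay just above it. The 3-week log2 difference from WKY was -0.87 ± 0.15 (adjusted p = 0.00084) in SHRSP and -0.57 ± 0.15 (adjusted p = 0.019) in SHR, and at 6 weeks it was 0.34 and 0.25, neither called. The SHR call at 3 weeks was lost without SHR replicate 2 or 3 or WKY replicate 2. Mgst1 and Mgst3 were called in none of the 9 comparisons.

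Of the glutathione peroxidases, which reduce hydrogen and lipid peroxides, Gpx8, an enzyme of the endoplasmic reticulum, was the only one called against WKY in both strains at both ages. The Gpx8 difference was 0.34 ± 0.09 and 0.60 ± 0.09 in SHRSP and SHR at 6 weeks and 0.42 ± 0.09 and 0.38 ± 0.09 at 3 weeks. Gpx3, the plasma form, was higher in SHRSP at 3 weeks by 0.66 ± 0.19, and its difference of 0.58 in SHR was not called. Gpx1, the cytosolic enzyme, was called in none of the strain comparisons. At 6 weeks, Gpx1 read 5.49, 5.64 and 5.41 in SHRSP glands, 5.80, 5.68 and 5.63 in SHR glands and 5.61, 5.18 and 5.62 in WKY glands. The 3-week Gpx1 values were 5.38, 5.32 and 5.47 in SHRSP glands, 5.43, 5.40 and 5.28 in SHR glands and 5.46, 5.59 and 5.48 in WKY glands. SHRSP overlapped with WKY at both ages, and SHR lay just above WKY at 6 weeks and just below it at 3 weeks. Gpx4, which protects membranes from lipid peroxides, was not called in any comparison. At 6 weeks, Gpx4 read 6.29, 6.30 and 6.08 in SHRSP glands, 6.51, 6.17 and 6.21 in SHR glands and 6.19, 6.15 and 6.31 in WKY glands. The 3-week Gpx4 values were 5.97, 6.06 and 6.30 in SHRSP glands, 5.93, 6.04 and 6.14 in SHR glands and 5.78, 6.01 and 6.03 in WKY glands. Both Gpx4 probes gave differences between 0.01 and 0.26 against WKY. The brighter Gpx2 probe was well above background on 8 arrays and stood apart on 2 of them, with -3.73 on SHRSP replicate 3 and -3.70 on WKY replicate 1 at 6 weeks; it was not called. The 2 Gpx2 probes disagree: the second, almost as bright and well above background on 16 arrays, was higher in SHR than in WKY at 3 weeks by 0.63 ± 0.19 (limma, adjusted p = 0.037) and differed by -0.89 ± 0.19 at 6 over 3 weeks in SHR (adjusted p = 0.0039).

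Glutathione is made by glutamate-cysteine ligase, whose catalytic subunit Gclc sets the rate. Gclc was lower in both hypertensive strains at both ages. At 6 weeks, Gclc read 2.54, 2.38 and 2.54 in SHRSP glands, 2.64, 2.50 and 2.44 in SHR glands and 2.85, 2.84 and 2.99 in WKY glands. The 3-week Gclc values were 2.78, 2.56 and 2.32 in SHRSP glands, 2.90, 2.65 and 2.44 in SHR glands and 3.14, 3.10 and 3.05 in WKY glands. Every SHRSP and SHR array lay below every WKY array of its age. The difference from WKY was -0.41 ± 0.12 (adjusted p = 0.024) in SHRSP and -0.37 ± 0.12 (adjusted p = 0.036) in SHR at 6 weeks, and -0.54 ± 0.12 (adjusted p = 0.0047) in SHRSP and -0.43 ± 0.12 (adjusted p = 0.024) in SHR at 3 weeks. The SHRSP call at 3 weeks held under every other fit, and the other 3 were lost with 1 array left out (at 6 weeks any WKY array or SHR replicate 2 or 3 for SHR, and WKY replicate 3 or SHRSP replicate 2 for SHRSP; at 3 weeks any WKY array or SHR replicate 2 or 3). Without the 3 arrays of raised liver transcripts, which leaves 1 SHR array at 3 weeks, the Gclc difference there was -0.20 in SHR. Gclm, the modifier subunit, varied widely within groups. At 6 weeks, Gclm read -5.61, -5.07 and -4.20 in SHRSP glands, -5.74, -4.35 and -4.25 in SHR glands and -5.81, -4.86 and -6.41 in WKY glands. The 3-week Gclm values were -5.30, -5.18 and -5.93 in SHRSP glands, -5.49, -6.07 and -6.14 in SHR glands and -5.60, -6.38 and -6.37 in WKY glands. With differences of 0.74 ± 0.47 and 0.91 ± 0.47 in SHRSP and SHR at 6 weeks, Gclm was not called. Gsr, glutathione reductase, was lower in SHRSP at 6 weeks (-0.30 ± 0.08), in SHRSP at 3 weeks (-0.26 ± 0.08) and in SHR at 3 weeks (-0.41 ± 0.08). Gss, glutathione synthetase, was higher in SHRSP at 3 weeks (0.33 ± 0.10).

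The cytosolic glutaredoxin Glrx1, which removes glutathione from protein thiols, was higher in both hypertensive strains. At 6 weeks, Glrx1 read -0.05, -0.63 and -0.67 in SHRSP glands, 0.06, -0.28 and -0.18 in SHR glands and -1.02, -1.26 and -1.15 in WKY glands. The 3-week Glrx1 values were -1.49, -1.48 and -1.32 in SHRSP glands, -1.32, -1.02 and -1.15 in SHR glands and -1.96, -1.90 and -1.88 in WKY glands. The hypertensive strains lay above WKY on every array at both ages. Glrx1 exceeded WKY by 0.69 ± 0.15 (adjusted p = 0.0029) in SHRSP and 1.01 ± 0.15 (adjusted p = 0.00016) in SHR at 6 weeks, and by 0.48 ± 0.15 (adjusted p = 0.024) in SHRSP and 0.75 ± 0.15 (adjusted p = 0.0023) in SHR at 3 weeks. The 3-week SHRSP call was lost without SHRSP replicate 3 or any 1 WKY array. Glrx5, of the mitochondrial iron-sulfur pathway, was higher by 0.22 ± 0.07 and 0.42 ± 0.07 in SHRSP and SHR at 6 weeks and by 0.42 ± 0.07 and 0.33 ± 0.07 at 3 weeks. Glrx2 went both ways: it was called lower than WKY in SHRSP at 6 weeks (-0.32) and in SHR at 3 weeks (-0.50). In SHR at 6 weeks it was called higher, and in SHRSP at 3 weeks it was not called. Glrx3 was not called against WKY. The 6-week SHRSP call of Glrx5 was lost in 18 of the 30 other fits, and the 3-week SHR difference was 0.24 and not called without the 3 arrays of raised liver transcripts.

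Among the peroxiredoxins, which reduce peroxides through a cysteine, Prdx1, Prdx3 and Prdx5 were called in no comparison. Prdx3, the mitochondrial form, read 5.49, 5.62 and 5.42 in SHRSP glands, 5.81, 5.81 and 5.72 in SHR glands and 5.71, 5.40 and 5.77 in WKY glands at 6 weeks. The 3-week Prdx3 values were 5.80, 5.50 and 5.76 in SHRSP glands, 5.57, 5.57 and 5.38 in SHR glands and 5.69, 5.68 and 5.60 in WKY glands. SHRSP overlapped with WKY at both ages and SHR at 6 weeks, and no array stood far from the others. Prdx2 and Prdx4 were higher in SHR at 6 weeks (0.31 ± 0.07 and 0.28 ± 0.09), Prdx4 also in SHRSP at 3 weeks (0.25 ± 0.09), and Prdx6 in SHRSP at 6 weeks (0.41 ± 0.12). None of these 4 calls held under every other fit.

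Srxn1, sulfiredoxin, which restores overoxidised peroxiredoxins, differed from WKY in opposite directions at the 2 ages in SHRSP. At 6 weeks, Srxn1 read 1.77, 2.0 and 1.64 in SHRSP glands, 3.31, 3.06 and 3.15 in SHR glands and 2.10, 3.02 and 3.99 in WKY glands. The 3-week Srxn1 values were 2.75, 2.44 and 3.0 in SHRSP glands, 3.19, 3.63 and 3.38 in SHR glands and 1.52, 1.76 and 1.79 in WKY glands. At 3 weeks every SHRSP and SHR array lay above every WKY array, by 1.04 ± 0.32 (adjusted p = 0.028) in SHRSP and 1.71 ± 0.32 (adjusted p = 0.0020) in SHR. At 6 weeks every SHRSP array lay below every WKY array, with a difference of -1.23 ± 0.32 (adjusted p = 0.012), while SHR differed by 0.14 and was not called. WKY arrays at 6 weeks were spread over a wide range, from 2.10 to 3.99. The 6-week SHRSP call was lost in a fit of only SHRSP and WKY at 6 weeks, and the 3-week SHRSP call was lost without any 1 WKY array or SHRSP replicate 1 or 3.

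The thioredoxin system held 1 gene of large difference. Txnrd3, a thioredoxin-glutathione reductase best known from mouse testis, read -2.39, -2.82 and -2.48 in SHRSP glands, -2.76, -3.15 and -2.96 in SHR glands and -3.69, -4.20 and -3.60 in WKY glands at 6 weeks. The 3-week Txnrd3 values were -2.96, -3.15 and -3.12 in SHRSP glands, -3.51, -3.58 and -3.80 in SHR glands and -3.64, -3.75 and -3.95 in WKY glands. SHRSP lay above WKY on every array at both ages, and SHR did so at 6 weeks. Txnrd3 exceeded WKY by 1.27 ± 0.16 (adjusted p = 5.8e-05) in SHRSP and 0.88 ± 0.16 (adjusted p = 0.0011) in SHR at 6 weeks and by 0.71 ± 0.16 (adjusted p = 0.0050) in SHRSP at 3 weeks, while the SHR difference of 0.15 at 3 weeks was not called. Txnrd1, the cytosolic reductase, was called in no comparison on its brighter probe. At 6 weeks, Txnrd1 read -1.10, -1.69 and -1.47 in SHRSP glands, -1.25, -1.58 and -1.49 in SHR glands and -1.54, -1.87 and -1.39 in WKY glands. The 3-week Txnrd1 values were -1.03, -1.24 and -1.01 in SHRSP glands, -1.09, -0.94 and -1.18 in SHR glands and -1.22, -1.27 and -1.47 in WKY glands. SHRSP overlapped with WKY at both ages, and SHR overlapped with it at 6 weeks and lay just above it at 3 weeks. A dimmer Txnrd1 probe, well above background on all 18 arrays, was called in SHRSP over WKY at 3 weeks (0.51 ± 0.14, adjusted p = 0.012) and at 6 over 3 weeks in SHRSP (-0.48 ± 0.14, adjusted p = 0.017), where the brighter probe gave 0.23 and -0.33. Txnrd2, the mitochondrial reductase, was not called either. At 6 weeks, Txnrd2 read 0.32, 0.25 and 0.00 in SHRSP glands, 0.82, 0.35 and 0.32 in SHR glands and 0.58, 0.24 and 0.59 in WKY glands. The 3-week Txnrd2 values were 0.14, 0.07 and 0.30 in SHRSP glands, 0.25, 0.31 and 0.20 in SHR glands and 0.27, 0.32 and 0.41 in WKY glands. Both hypertensive strains overlapped with WKY at both ages. Txn1, cytosolic thioredoxin, was higher at 6 weeks by 0.23 ± 0.07 in SHRSP and 0.33 ± 0.07 in SHR, and mitochondrial Txn2 and the thioredoxin inhibitor Txnip were called in no comparison.

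Of the 11 tested genes with a thioredoxin domain or a thioredoxin-like name, calls against WKY were 5 higher and 1 lower in SHRSP and 5 higher and 1 lower in SHR at 6 weeks, and 4 higher and 2 lower in SHRSP and 2 higher and 1 lower in SHR at 3 weeks, to be read against the same shares of all genes as for the transferases. Txnl1, which binds the proteasome, was higher by 0.39 ± 0.07 and 0.45 ± 0.07 in SHRSP and SHR at 6 weeks and by 0.33 ± 0.07 and 0.21 ± 0.07 at 3 weeks, and the last of these calls was lost without any 1 array of the 2 groups. Txndc4 (Erp44), a chaperone of the early secretory pathway, was higher by 0.37 in SHRSP and 0.44 in SHR at 6 weeks, and by 0.27 in SHRSP at 3 weeks. Txndc15 and Txndc16 were higher at 6 weeks by 0.40 and 0.59 in SHRSP and 0.35 and 0.47 in SHR, and Txndc17, which can reduce small disulfides, by 0.40 in SHR. Txndc1 (Tmx1), a membrane-bound oxidoreductase of the endoplasmic reticulum, was lower in SHRSP, with -0.60 ± 0.16 at 6 weeks and -0.59 ± 0.16 at 3 weeks.

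Of the superoxide dismutases and catalase, Sod3 and Sod2 were higher in both hypertensive strains at 6 weeks. Sod3, the extracellular enzyme, read 5.08, 5.39 and 5.0 in SHRSP glands, 5.27, 4.89 and 4.97 in SHR glands and 4.45, 4.09 and 4.34 in WKY glands at 6 weeks. The 3-week Sod3 values were 3.53, 3.73 and 3.66 in SHRSP glands, 3.94, 3.80 and 3.89 in SHR glands and 3.48, 3.72 and 3.45 in WKY glands. SHRSP and SHR lay above WKY on every array at 6 weeks, by 0.86 ± 0.13 (adjusted p = 0.00022) in SHRSP and 0.75 ± 0.13 (adjusted p = 0.00066) in SHR, and the 3-week differences of 0.09 and 0.33 were not called. Sod2, the mitochondrial enzyme, read 3.74, 3.64 and 3.72 in SHRSP glands, 3.85, 3.75 and 3.89 in SHR glands and 3.14, 3.13 and 3.43 in WKY glands at 6 weeks. The 3-week Sod2 values were 3.58, 3.55 and 4.0 in SHRSP glands, 3.33, 3.31 and 3.46 in SHR glands and 3.06, 3.24 and 3.23 in WKY glands. Both hypertensive strains lay above WKY on every array at both ages. Sod2 exceeded WKY by 0.47 ± 0.12 (adjusted p = 0.0078) in SHRSP and 0.60 ± 0.12 (adjusted p = 0.0015) in SHR at 6 weeks and by 0.53 ± 0.12 (adjusted p = 0.0033) in SHRSP at 3 weeks, and the SHR difference of 0.19 at 3 weeks was not called. Sod1, the cytosolic enzyme, was called in SHRSP at 3 weeks alone. At 6 weeks, Sod1 read 5.72, 5.91 and 5.79 in SHRSP glands, 5.98, 6.0 and 6.01 in SHR glands and 5.74, 5.88 and 5.78 in WKY glands. The 3-week Sod1 values were 5.75, 5.90 and 6.05 in SHRSP glands, 5.69, 5.75 and 5.87 in SHR glands and 5.56, 5.63 and 5.76 in WKY glands. The SHRSP difference of 0.25 ± 0.09 (adjusted p = 0.049) at 3 weeks sat near the threshold and was lost under many other fits, and SHRSP and WKY arrays overlapped. Catalase (Cat) read -1.77, -1.79 and -1.90 in SHRSP glands, -1.44, -1.66 and -1.74 in SHR glands and -1.37, -1.85 and -1.66 in WKY glands at 6 weeks. The 3-week Cat values were -1.35, -1.32 and -1.35 in SHRSP glands, -1.54, -1.16 and -1.51 in SHR glands and -1.78, -1.70 and -1.69 in WKY glands. Cat was higher in SHRSP than in WKY at 3 weeks by 0.38 ± 0.12 (adjusted p = 0.034), a call lost without any 1 array of the 2 groups, and was not called at 6 weeks.

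The quinone reductase Nqo1, a standard Nrf2 target, read -2.92, -2.98 and -3.35 in SHRSP glands, -2.24, -2.97 and -2.67 in SHR glands and -3.18, -3.64 and -3.42 in WKY glands at 6 weeks. The 3-week Nqo1 values were -3.76, -3.83 and -3.35 in SHRSP glands, -3.76, -3.77 and -4.10 in SHR glands and -4.26, -4.06 and -4.30 in WKY glands. SHR at 6 weeks and SHRSP at 3 weeks lay above WKY on every array, and the other 2 comparisons overlapped. Nqo1 was higher than WKY in SHR at 6 weeks by 0.79 ± 0.19 (adjusted p = 0.0069) and in SHRSP at 3 weeks by 0.56 ± 0.19 (adjusted p = 0.044), and its differences of 0.32 in SHRSP at 6 weeks and 0.33 in SHR at 3 weeks were not called. The 3-week SHRSP call was lost without any 1 WKY array or SHRSP replicate 1 or 3. The inducible heme oxygenase Hmox1 was called in no comparison. At 6 weeks, Hmox1 read -1.83, -1.67 and -2.06 in SHRSP glands, -1.73, -1.70 and -1.72 in SHR glands and -1.78, -2.05 and -2.03 in WKY glands. The 3-week Hmox1 values were -1.86, -1.76 and -1.18 in SHRSP glands, -1.64, -1.75 and -1.87 in SHR glands and -1.98, -2.02 and -1.89 in WKY glands. SHRSP replicate 3 at 3 weeks lay above the rest.

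Both regulators differed from WKY. Nfe2l2 (Nrf2) read 2.90, 2.68 and 2.56 in SHRSP glands, 3.04, 2.99 and 2.86 in SHR glands and 2.42, 2.03 and 2.42 in WKY glands at 6 weeks. The 3-week Nfe2l2 values were 2.93, 2.85 and 3.15 in SHRSP glands, 2.61, 2.54 and 2.57 in SHR glands and 2.53, 2.72 and 2.45 in WKY glands. Both hypertensive strains at 6 weeks and SHRSP at 3 weeks lay above WKY on every array. Nfe2l2 exceeded WKY by 0.43 ± 0.12 (adjusted p = 0.020) in SHRSP and 0.67 ± 0.12 (adjusted p = 0.00098) in SHR at 6 weeks and by 0.41 ± 0.12 (adjusted p = 0.024) in SHRSP at 3 weeks, and in SHR at 3 weeks it differed by 0.01. The SHRSP calls were lost without WKY replicate 2 or SHRSP replicate 1 at 6 weeks, and without WKY replicate 1 or 3 or SHRSP replicate 3 at 3 weeks. Keap1 read -0.76, -0.81 and -0.89 in SHRSP glands, -0.85, -1.03 and -1.21 in SHR glands and -0.62, -0.84 and -0.60 in WKY glands at 6 weeks. The 3-week Keap1 values were -1.01, -1.08 and -1.0 in SHRSP glands, -0.88, -0.96 and -1.05 in SHR glands and -0.81, -0.56 and -0.62 in WKY glands. SHR at both ages and SHRSP at 3 weeks lay below WKY on every array. Keap1 was lower than WKY in SHR at 6 weeks (-0.35 ± 0.10) and in SHRSP at 3 weeks (-0.37 ± 0.10), and its differences of -0.14 in SHRSP at 6 weeks and -0.30 in SHR at 3 weeks were not called.

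**Figure D3:**
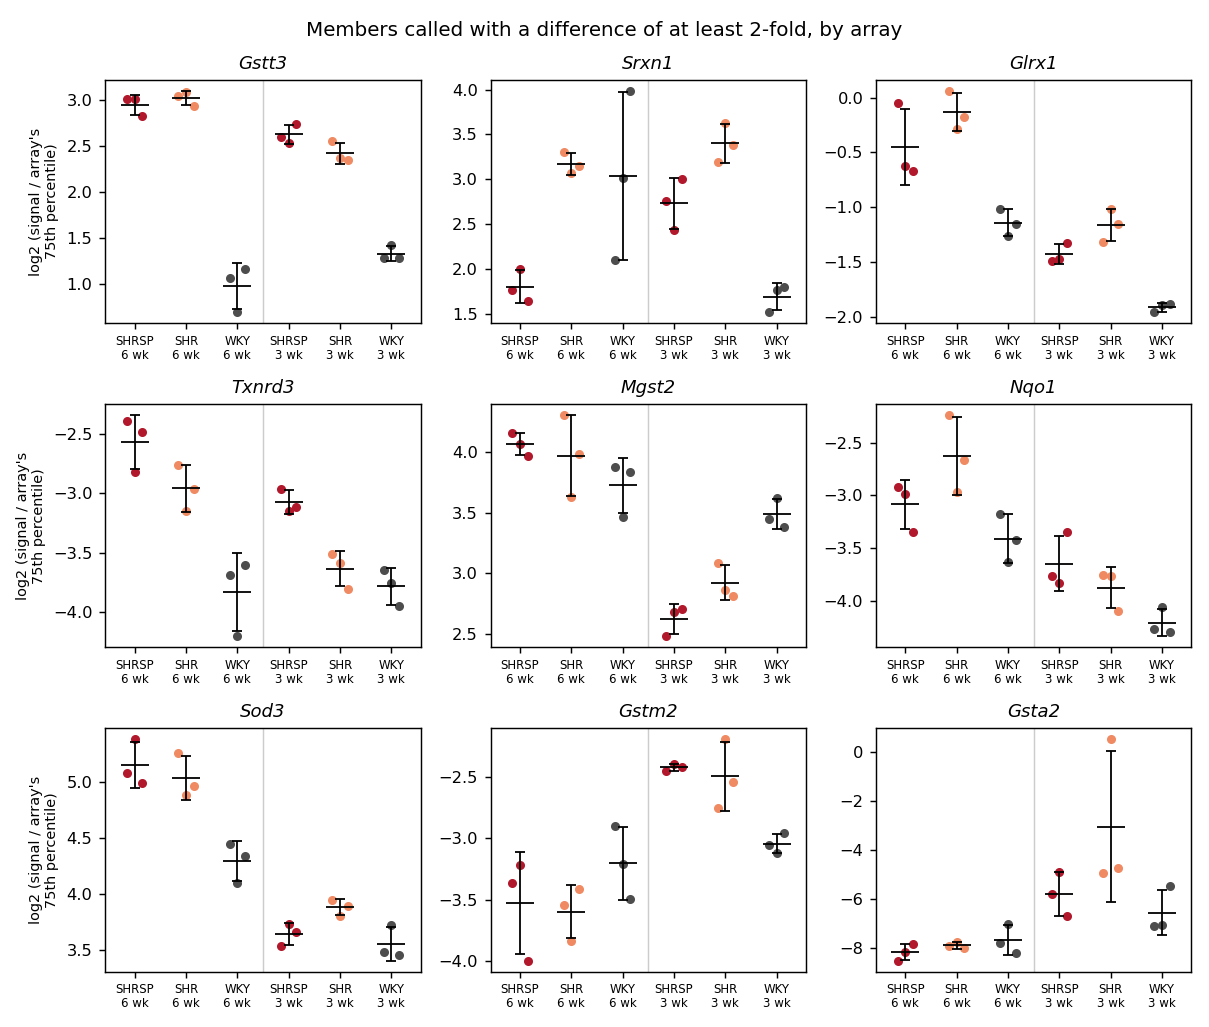
Log2 of the signal over the array's 75th percentile for the 9 genes called with at least a 2-fold difference, with 1 point per array and bars for the mean and SD of 3 arrays; groups run from SHRSP, SHR and WKY at 6 weeks to SHRSP, SHR and WKY at 3 weeks. Gstt3 lies above WKY in both hypertensive strains at both ages, Mgst2 lies below WKY at 3 weeks alone, and 1 SHR array at 3 weeks stands apart for Gsta2 at 0.52.

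SHRSP and SHR were also set against each other. At 6 weeks, 7 of the 69 were called for SHRSP over SHR, 2 higher and 5 lower, where 15.0% of all tested genes were called, 6.74% higher and 8.22% lower. At 3 weeks, 5 were called, 3 higher and 2 lower, where 7.94% of all tested genes were called, 4.73% higher and 3.21% lower. Quantile normalization called 3 higher and 2 lower at 6 weeks, and scaling to the array median 2 higher and 2 lower. With the slide as a fixed block, 14 were called at 6 weeks and 8 at 3 weeks. Without the 3 arrays of raised liver transcripts, 1 gene (Txndc13) was called at 3 weeks. Hmox2, Txndc13 and Glrx2 were called at both ages, each with opposite signs. None of them reached 2-fold at both ages, so they are not among the genes of large strain difference described above. Of all 733 genes called at both ages at any size, 345 had opposite signs and 388 the same sign. The median difference over all genes was -0.11 at 6 weeks, and that of the 69 genes -0.08.

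Hmox2, the constitutive heme oxygenase, read 0.71, 0.42 and 0.46 in SHRSP glands, 0.08, -0.37 and -0.12 in SHR glands and 0.44, 0.31 and 0.38 in WKY glands at 6 weeks. The 3-week Hmox2 values were -0.14, 0.02 and -0.16 in SHRSP glands, 0.48, 0.45 and 0.53 in SHR glands and 0.40, 0.36 and 0.41 in WKY glands. SHR at 6 weeks and SHRSP at 3 weeks were the low groups, and the SHRSP over SHR difference was 0.66 ± 0.11 (adjusted p = 0.00074) at 6 weeks and -0.58 ± 0.11 (adjusted p = 0.0036) at 3 weeks. Txndc13 (Tmx4), a membrane protein of the endoplasmic reticulum, read 1.21, 1.21 and 1.17 in SHRSP glands, 0.08, 0.32 and 0.21 in SHR glands and 0.50, 0.55 and 0.62 in WKY glands at 6 weeks. The 3-week Txndc13 values were 0.31, 0.11 and 0.18 in SHRSP glands, 0.97, 0.87 and 1.08 in SHR glands and 0.66, 0.73 and 0.77 in WKY glands. Its difference was 0.99 ± 0.08 (adjusted p = 3.3e-06) at 6 weeks and -0.77 ± 0.08 (adjusted p = 4.7e-05) at 3 weeks, and a second probe gave 1.52 and -1.20. Glrx2, the mitochondrial glutaredoxin, read 1.07, 1.12 and 1.14 in SHRSP glands, 1.79, 1.66 and 1.79 in SHR glands and 1.40, 1.37 and 1.51 in WKY glands at 6 weeks. The 3-week Glrx2 values were 1.62, 1.62 and 1.64 in SHRSP glands, 1.12, 1.05 and 1.10 in SHR glands and 1.53, 1.62 and 1.60 in WKY glands. Its difference was -0.64 ± 0.06 (adjusted p = 1.9e-05) at 6 weeks and 0.54 ± 0.06 (adjusted p = 0.00013) at 3 weeks. In all 3 genes no array of SHRSP overlapped with SHR at either age.

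The remaining calls were made at 1 age. At 6 weeks Srxn1 was lower in SHRSP than in SHR, with a difference of -1.37 ± 0.32 (adjusted p = 0.010), and the call held under every other fit of these arrays. Glrx3, Gsto2 and Gstt2 were lower in SHRSP at 6 weeks, with -0.25 ± 0.07, -0.38 ± 0.10 and -0.44 ± 0.13, calls that quantile normalization and the array median both ended. At 3 weeks Txnl4b was higher in SHRSP by 0.57 ± 0.08 and Txnrd3 by 0.56 ± 0.16; the Txnrd3 call was lost without any 1 array of the 2 groups.

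**Figure D4:**
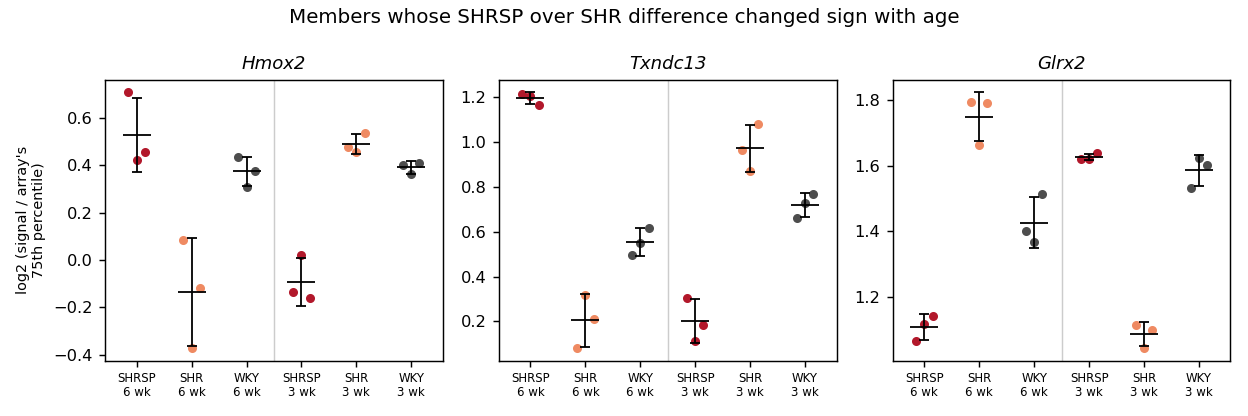
Log2 of the signal over the array's 75th percentile for Hmox2, Txndc13 and Glrx2, with 1 point per array and bars for the mean and SD of 3 arrays; groups run from SHRSP, SHR and WKY at 6 weeks to SHRSP, SHR and WKY at 3 weeks. In each gene SHRSP at 6 weeks lies close to SHR at 3 weeks, and SHR at 6 weeks close to SHRSP at 3 weeks.

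The 6-week glands of each strain were set against its 3-week glands. The only slide of the last scan day held 6-week arrays alone, and the main fit held no slide term. Age is therefore partly confounded with slide and scan day. In SHRSP, 25 of the 69 were called at 6 over 3 weeks, 11 higher and 14 lower, where 29.0% of all tested genes were called, 10.5% higher and 18.5% lower. In SHR, 30 were called, 21 higher and 9 lower, where 29.3% of all tested genes were called, 15.1% higher and 14.1% lower. In WKY, 11 were called, 6 higher and 5 lower, where 12.3% of all tested genes were called, 5.15% higher and 7.16% lower. With the labels of SHR and SHRSP exchanged at 6 weeks, 21 were called for the arrays labelled SHR at 6 weeks over those labelled SHRSP at 3 weeks, and 28 for SHRSP at 6 weeks over SHR at 3 weeks. The split again moved with the scaling: quantile normalization called 13 higher and 10 lower in SHRSP and 14 higher and 11 lower in SHR, and the array median 14 higher and 5 lower in SHRSP and 6 higher and 2 lower in WKY. Without the 3 arrays of raised liver transcripts, 11 genes were called in SHR.

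Glrx1, Gstk1, Nqo1 and Sod3 were higher at 6 weeks in all 3 strains, a pattern met by 2.11% of all genes, and Gpx7 and Gpx8 were lower in all 3, a pattern met by 2.62%. Sod3 was higher at 6 weeks by 1.51 ± 0.13 (adjusted p = 1.7e-06) in SHRSP, 1.16 ± 0.13 (adjusted p = 2.4e-05) in SHR and 0.74 ± 0.13 (adjusted p = 0.0020) in WKY. For Glrx1 the age change was 0.98 ± 0.15 (adjusted p = 0.00020) in SHRSP, 1.03 ± 0.15 (adjusted p = 0.00016) in SHR and 0.77 ± 0.15 (adjusted p = 0.0035) in WKY. Every 6-week array lay above every 3-week array of its strain for both genes. Nqo1 was higher by 0.56 ± 0.19 in SHRSP, 1.25 ± 0.19 in SHR and 0.80 ± 0.19 in WKY. The Nqo1 call in SHRSP was lost without SHRSP replicate 1 or 2 at either age or WKY replicate 1 or 3 at 3 weeks, and that in WKY without WKY replicate 1 or 3 at 3 weeks or replicate 1 at 6 weeks. Gstk1, a transferase of mitochondria and peroxisomes, was higher by 0.81 ± 0.09 in SHRSP, 0.67 ± 0.09 in SHR and 0.62 ± 0.09 in WKY.

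The peroxidases of the endoplasmic reticulum were lower at the later age. Gpx7 was lower at 6 weeks, with -0.69 ± 0.13 in SHRSP, -0.92 ± 0.13 in SHR and -0.85 ± 0.13 in WKY, and so was Gpx8, with -0.67 ± 0.09, -0.38 ± 0.09 and -0.59 ± 0.09 in SHRSP, SHR and WKY. With SHR and SHRSP exchanged at 6 weeks, the Sod3 change was 1.40 and 1.28 for the arrays labelled SHRSP and SHR at 3 weeks, that of Glrx1 1.30 and 0.71, that of Gstk1 0.68 and 0.80, that of Nqo1 1.02 and 0.79, that of Gpx7 -0.89 and -0.71, and that of Gpx8 -0.42 and -0.63. All of these kept their direction. In WKY the remaining calls were Srxn1 and the file's Gsta3 (0.44 ± 0.08), both higher, and Gstt1 (-0.43 ± 0.12), Gsto1 (-0.32 ± 0.09) and Txndc1 (-0.57 ± 0.16), all lower. The mu-class genes Gstm4 and Gstm5 were lower at 6 weeks in SHR (-0.45 and -0.59), and Gstm4 in SHRSP too (-0.40). The Gstm4 call was lost in 22 of the 30 other fits in SHRSP and in 9 in SHR, and that of Gstm5 in 6. Without the 3 arrays of raised liver transcripts the SHR values were -0.45 for Gstm4 and -0.53 for Gstm5, neither called.

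Whether the age change differed between strains was tested directly. For SHRSP against WKY, 9 of the 69 genes were called, 6 higher and 3 lower, where 10.1% of all tested genes were called, 3.73% higher and 6.36% lower. For SHR against WKY, 8 were called, 6 higher and 2 lower, where 5.81% of all tested genes were called, 3.41% higher and 2.40% lower. For SHRSP against SHR, 5 were called, 2 higher and 3 lower, where 11.9% of all tested genes were called, 4.44% higher and 7.47% lower. With the slide as a fixed block the counts were 10, 18 and 17 for these 3 comparisons. Quantile normalization called 2 higher and 4 lower for SHR against WKY and 3 higher and 2 lower for SHRSP against SHR, the array median 6 higher and 1 lower for SHRSP against WKY, and the median over all genes was -0.17 for SHRSP against SHR. Mgst2 was higher at 6 weeks by 1.45 ± 0.15 (adjusted p = 1.1e-05) in SHRSP and 1.05 ± 0.15 (adjusted p = 0.00021) in SHR, against 0.24 in WKY. The age change exceeded that of WKY by 1.21 ± 0.22 (adjusted p = 0.0036) in SHRSP and 0.81 ± 0.22 (adjusted p = 0.043) in SHR. Gstp1 was higher by 0.92 ± 0.12 (adjusted p = 5.5e-05) in SHRSP and 0.71 ± 0.12 (adjusted p = 0.00051) in SHR, against 0.10 in WKY, and its age change exceeded that of WKY by 0.82 ± 0.16 (adjusted p = 0.0070) and 0.61 ± 0.16 (adjusted p = 0.044). Gstt3 was higher by 0.32 ± 0.11 in SHRSP, a call lost under many other fits, and by 0.60 ± 0.11 in SHR, against -0.35 in WKY, and its age change exceeded that of WKY by 0.68 ± 0.16 and 0.95 ± 0.16, both called. Without the 3 arrays of raised liver transcripts these Gstt3 differences were 0.63 and 0.82, about as large and not called (adjusted p = 0.064 and 0.13). With the labels exchanged at 6 weeks, the age change for the arrays labelled SHRSP and SHR at 3 weeks was 1.35 and 1.15 for Mgst2, 0.82 and 0.81 for Gstp1 and 0.40 and 0.53 for Gstt3. The calls on age changes over WKY in SHR were lost for Mgst2 and Gstp1 with many single arrays left out, each array of WKY at 3 weeks among them.

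Srxn1 was higher at 6 weeks in WKY, by 1.35 ± 0.32 (adjusted p = 0.015), where SHRSP differed by -0.93 ± 0.32 (adjusted p = 0.044) and SHR by -0.23, the last not called. The WKY call was lost without WKY replicate 1 at 3 weeks (1.26), and the SHRSP call without any 1 array of SHRSP at either age. The age change in SHRSP less that of WKY was -2.27 ± 0.46 (adjusted p = 0.0069) and the same for SHR was -1.57, not called. With the labels exchanged at 6 weeks, the Srxn1 change for the arrays labelled SHRSP at 3 weeks was 0.44 and not called, and for those labelled SHR at 3 weeks -1.60. Txnrd3 was higher at 6 weeks by 0.51 ± 0.16 in SHRSP and 0.68 ± 0.16 in SHR, against -0.05 in WKY. Cat was lower at 6 weeks in SHRSP (-0.48 ± 0.12), and Gpx1, Sod2 and Nfe2l2 were higher in SHR by 0.34 ± 0.11, 0.46 ± 0.12 and 0.39 ± 0.12. With the labels exchanged these became 0.12 and 1.07 for Txnrd3 in the arrays labelled SHRSP and SHR at 3 weeks, -0.27 for Cat in SHRSP, and 0.15, 0.33 and 0.14 for Gpx1, Sod2 and Nfe2l2 in SHR.

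The 3 genes that crossed between the hypertensive strains had age changes of opposite sign in them. Hmox2 differed at 6 over 3 weeks by 0.62 in SHRSP and -0.62 in SHR, against -0.02 in WKY. With the labels exchanged at 6 weeks these changes became -0.04 and 0.04, neither called. Txndc13 differed by 0.99 in SHRSP and -0.77 in SHR, against -0.17 in WKY, and exchanged labels gave 0.00 and 0.22. Glrx2 differed by -0.52 in SHRSP and 0.66 in SHR, against -0.16 in WKY, and exchanged labels gave 0.12 and 0.02. All 6 changes as labelled were called, and none of the 6 exchanged values was. These genes were chosen because their SHRSP over SHR difference was called at both ages with opposite signs. Small changes with exchanged labels follow largely from that choice and are no test of a label exchange.

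Genes that feed or surround these enzymes were taken from lists by function, without the 75 genes; values are log2 differences, and every gene named from a list was called in the comparisons given. Over the same 4 comparisons with WKY, the median over all genes ran from -0.01 to 0.09. The lists' counts stand beside calls for 23.9% of all genes in SHRSP and 29.2% in SHR at 6 weeks and 26.2% and 18.2% at 3 weeks, and for 29.0%, 29.3% and 12.3% with age in SHRSP, SHR and WKY; the lists are small, and nothing particular to any of them is read from its count. Of 9 tested genes of NADPH supply, which yields the electrons for both reductases, calls against WKY were 2 higher and 2 lower in SHRSP and 3 higher and 2 lower in SHR at 6 weeks, and 0 higher and 2 lower in SHRSP and 1 higher and 2 lower in SHR at 3 weeks. The list's median difference from WKY ran from -0.10 to 0.10. Idh1, the cytosolic isocitrate dehydrogenase, was lower, at -2.05 in SHRSP and -0.99 in SHR at 6 weeks and -1.22 and -0.93 at 3 weeks, and so was malic enzyme Me1, at -2.24 and -2.02 at 6 weeks. The mitochondrial malic enzyme Me3 was higher by 1.03 in SHRSP and 0.68 in SHR at 6 weeks. With age the list had 2 higher and 5 lower in SHRSP, 3 higher and 4 lower in SHR and 1 higher and 2 lower in WKY.

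Of 13 genes of cysteine supply and the methyl cycle, calls against WKY were 5 higher and 2 lower in SHRSP and 5 higher and 1 lower in SHR at 6 weeks, and 6 higher and 3 lower in SHRSP and 5 higher and 1 lower in SHR at 3 weeks. Its median difference from WKY ran from 0.09 to 0.24. The amino acid transporter Slc1a4 was higher by 3.65 in SHR at 6 weeks and by 3.39 and 3.26 in SHRSP and SHR at 3 weeks, and the cystine transporter Slc7a11 by 2.55 in SHR at 6 weeks. Cbs, which starts the path from homocysteine to cysteine, was higher by 3.48 in SHRSP at 6 weeks and by 3.19 in SHR at 3 weeks, and its SHRSP over SHR difference was 2.51 at 6 weeks and -2.12 at 3 weeks, opposite in sign like that of Hmox2. For age, the calls were 3 higher and 1 lower in SHRSP, 3 higher and 3 lower in SHR and 1 higher and 0 lower in WKY. Of 17 genes of glutathione breakdown and export, calls against WKY were 1 higher and 4 lower in SHRSP and 3 higher and 2 lower in SHR at 6 weeks, and 2 higher and 5 lower in SHRSP and 1 higher and 3 lower in SHR at 3 weeks. Medians over the list against WKY ran from -0.16 to -0.02. The export pump Abcc1 was lower, at -1.31 in SHRSP and -1.05 in SHR at 6 weeks and -0.72 and -0.80 at 3 weeks, and so was Abcc3, of the same family, at -0.67 and -0.63 at 6 weeks. The age changes called were 2 higher and 5 lower in SHRSP, 3 higher and 3 lower in SHR and 1 higher and 3 lower in WKY.

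Of 19 other genes linked to Nrf2, calls against WKY were 6 higher and 5 lower in SHRSP and 7 higher and 3 lower in SHR at 6 weeks, and 4 higher and 3 lower in SHRSP and 3 higher and 3 lower in SHR at 3 weeks. The median over these genes against WKY ran from 0.00 to 0.30. Mafk, a small Maf partner of Nrf2, was lower, at -1.20 in SHRSP and -1.17 in SHR at 6 weeks and -1.41 and -1.37 at 3 weeks, while its relative Maff was higher at 3 weeks by 1.91 and 1.95. Osgin1 was lower at 6 weeks, at -2.08 in SHRSP and -1.67 in SHR, and so was the aldehyde reductase Akr7a3, at -1.31 in SHRSP. At 6 over 3 weeks the calls were 2 higher and 7 lower in SHRSP, 6 higher and 1 lower in SHR and 3 higher and 1 lower in WKY. Of 17 genes of selenium handling and other selenoproteins, calls against WKY were 3 higher and 2 lower in SHRSP and 2 higher and 2 lower in SHR at 6 weeks, and 5 higher and 3 lower in SHRSP and 2 higher and 2 lower in SHR at 3 weeks. Against WKY the list's median ran from 0.06 to 0.19. Dio3, which inactivates thyroid hormone, was higher by 1.17 in SHRSP and 1.53 in SHR at 6 weeks and by 1.75 and 1.45 at 3 weeks. The selenium carrier Sepp1 was higher at 6 than at 3 weeks by 0.82 in SHRSP, 0.93 in SHR and 0.92 in WKY. With age the list had 2 higher and 3 lower in SHRSP, 4 higher and 3 lower in SHR and 1 higher and 1 lower in WKY.

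Of 17 genes of oxidant sources, calls against WKY were 2 higher and 1 lower in SHRSP and 4 higher and 1 lower in SHR at 6 weeks, and 6 higher and 0 lower in SHRSP and 6 higher and 1 lower in SHR at 3 weeks. The median difference from WKY ran from 0.09 to 0.32. The neuronal nitric oxide synthase Nos1 was higher by 0.91 in SHRSP at 6 weeks and by 2.51 in SHRSP and 1.44 in SHR at 3 weeks. Xanthine dehydrogenase Xdh was higher in SHRSP at 6 weeks by 1.09. For age, the calls were 2 higher and 4 lower in SHRSP, 2 higher and 3 lower in SHR and 1 higher and 0 lower in WKY. Of 10 metallothioneins and metal carriers, calls against WKY were 0 higher and 1 lower in SHRSP and 1 higher and 1 lower in SHR at 6 weeks, and 1 higher and 0 lower in SHRSP and 0 higher and 0 lower in SHR at 3 weeks. Across these comparisons the median ran from 0.03 to 0.20. The metallothionein Mt2A was higher at 6 than at 3 weeks by 1.30 in SHRSP, 2.0 in SHR and 1.14 in WKY. The iron exporter Slc40a1 was lower than WKY at 6 weeks, at -0.54 in SHRSP and -0.80 in SHR. The age changes called were 3 higher and 2 lower in SHRSP, 4 higher and 3 lower in SHR and 2 higher and 1 lower in WKY.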

How the data were processed

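Adrenal RNA of 6 groups, 3 arrays each, had been labelled with Cy3 and hybridised to one-colour Agilent rat arrays, per the labels' protocols. The submitters' processing notes name Agilent Feature Extraction 10.5.1.1 for reading the images. The deposited intensity of each spot is the processed signal, detrended within the array and not normalized between arrays, per the file headers, and the deposited value table of the series held the same intensity values. Control spots and spots marked as outliers were left out, spots of a probe were averaged, and each array was divided by its 75th percentile and put on the log2 scale. A gene was tested where some group had its brightest probe well above background in all 3 arrays. The 20835 gene names tested entered 1 linear model with 6 group means over 18 arrays (lmFit and eBayes of limma 3.58.1, under R 4.3.3), and p-values were adjusted by Benjamini-Hochberg over all of them; the fit was tested on simulated data.

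Between 77.8% and 84.8% of spots per array were well above background, the 75th percentile of the signal ran from 2092 to 2602, no spot was saturated, and arrays of a group correlated at 0.987 or more; the number of arrays limits the precision. Per the file headers, 5 slides and 3 scan days were used. The only slide of the last scan day held 6-week arrays alone: WKY replicate 2, SHR replicates 2 and 3 and SHRSP replicate 3. Members were matched to RefSeq by accession (69) or symbol (6), and promoters come from its GRCr8 table. The members and lists were chosen with earlier results of these data known. Values per array are given for genes called with at least a 2-fold pairwise difference and for a set of well-known genes whatever their result, and for Hmox2, Txndc13 and Glrx2, chosen after their values were seen. From the other lists, only genes among the 3 with the smallest adjusted p of a comparison are named. Alternatives covered background correction, scaling, filters, probes, slide and replicate blocks, the groups in the fit and each array left out. Those without the arrays of raised liver transcripts and with exchanged labels were chosen after seeing the data.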

Additional observations from a re-analysis of the deposited data

Results flagged for a closer look

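In 12 of the 69 genes the age change differed between strains by the test of the difference itself, in 22 values (log2, the first strain's age change less that of the second). For SHRSP less WKY, SHR less WKY and SHRSP less SHR, 9, 8 and 5 of the 69 genes were called, where 10.1%, 5.81% and 11.9% of all genes were. For SHRSP less WKY, the differences were -2.27 ± 0.46 (adjusted p = 0.0069) for Srxn1, 1.21 ± 0.22 (adjusted p = 0.0036) for Mgst2, 0.82 ± 0.16 (adjusted p = 0.0070) for Gstp1, 0.77 ± 0.18 (adjusted p = 0.016) for Sod3 and 0.68 ± 0.16 (adjusted p = 0.016) for Gstt3. Gstm2 differed by -0.94 ± 0.28 (adjusted p = 0.047), Txndc13 by 1.16 ± 0.11 (adjusted p = 5.9e-05), Hmox2 by 0.64 ± 0.15 (adjusted p = 0.015) and Glrx2 by -0.36 ± 0.09 (adjusted p = 0.022). With SHR and SHRSP labels exchanged at 6 weeks, the SHRSP value was -0.90 for Srxn1, 1.11 for Mgst2, 0.72 for Gstp1, 0.66 for Sod3, 0.75 for Gstt3, -1.02 for Gstm2, 0.17 for Txndc13, -0.03 for Hmox2 and 0.28 for Glrx2.

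For SHR less WKY, the differences were 0.95 ± 0.16 (adjusted p = 0.0045) for Gstt3, 0.81 ± 0.22 (adjusted p = 0.043) for Mgst2, 0.61 ± 0.16 (adjusted p = 0.044) for Gstp1, 0.67 ± 0.17 (adjusted p = 0.039) for Nfe2l2 and 0.43 ± 0.11 (adjusted p = 0.036) for Txndc17. Glrx2 differed by 0.82 ± 0.09 (adjusted p = 0.00021), Hmox2 by -0.61 ± 0.15 (adjusted p = 0.031) and Txndc13 by -0.60 ± 0.11 (adjusted p = 0.0084). Exchanged labels gave 0.88 for Gstt3, 0.91 for Mgst2, 0.71 for Gstp1, 0.42 for Nfe2l2, 0.23 for Txndc17, 0.18 for Glrx2, 0.06 for Hmox2 and 0.39 for Txndc13. For SHRSP less SHR, the differences were 1.76 ± 0.11 (adjusted p = 2.2e-07) for Txndc13, 1.25 ± 0.15 (adjusted p = 0.00010) for Hmox2, -1.18 ± 0.09 (adjusted p = 1.2e-06) for Glrx2, -0.65 ± 0.17 (adjusted p = 0.026) for Nfe2l2 and -0.53 ± 0.11 (adjusted p = 0.0075) for Txnl4b. Exchanged labels gave -0.22, -0.08, 0.10, -0.16 and -0.60 for these 5 genes. Without the 3 arrays of raised liver transcripts, only Glrx2 kept its call of the 8 for SHR less WKY, Glrx2, Gstm2 and Gstt3 lost theirs of the 9 for SHRSP less WKY, and Nfe2l2 and Txnl4b lost theirs of the 5 for SHRSP less SHR. Of the 30 other fits, 16 ended the SHR less WKY call of Nfe2l2, 12 that of Txndc17 and 19 the SHRSP less WKY call of Gstm2. The differences of SHRSP and SHR from WKY share the WKY arrays. A label exchange and a strain effect that turns with age cannot be told apart.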

How the results depend on the processing

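Of 196 calls on single genes, 72 kept their call under every other fit of these labels and 124 lost it under at least 1. No sign turned except with exchanged labels, and all 257 values within slides kept their sign. Of these 257, 110 lay at least 1 within-group SD from the main difference. The within-slide values use the arrays that made the calls, and several comparisons had only 1 slide, so kept signs are no independent support. The counts below stand without the share of all genes called in the same fit. The counts of the 69 genes that moved by over 1.5 times were as follows, in order of comparison: SHR over WKY at 3 weeks had 27 with slide as a fixed and 27 as a random block and 2 without the 3 arrays of raised liver transcripts. SHRSP over WKY at 3 weeks had 17 with the array median and 14 without those arrays. SHRSP over SHR at 3 weeks had 8 and 8 with slide fixed and random and 1 without those arrays. Fits of only the groups compared gave 11 for SHR and 8 for SHRSP over WKY and 3 for SHRSP over SHR at 6 weeks. SHRSP over SHR at 6 weeks had 4 with the array median, 14 with slide fixed and 16 with it random. The age change had 17 in WKY with slide random and 11 in SHR without the liver arrays. The age change of SHR over WKY had 4 with the array median, 3 with no filter, 18 and 18 with slide fixed and random, 3 with only the groups compared and 1 without the liver arrays. That of SHRSP over WKY had 3 with exchanged labels. That of SHRSP over SHR had 17 and 16 with slide fixed and random and 3 without the liver arrays; the cause of these moves was not tested.

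Leaving out 1 array at a time gave 15 to 31 calls for SHRSP and 7 to 19 for SHR over WKY at 3 weeks, 17 to 24 and 22 to 29 at 6 weeks, 5 to 9 and 4 to 7 for SHRSP over SHR at 6 and 3 weeks, 19 to 25, 23 to 32 and 8 to 13 for age in SHRSP, SHR and WKY, and 7 to 11, 3 to 8 and 4 to 9 for the age change of SHRSP over WKY, SHR over WKY and SHRSP over SHR. The arrays that moved a count by over 1.5 times were WKY replicate 2 at 3 weeks for SHR over WKY (7), WKY replicates 1, 2 and 3 (18, 17 and 17) and SHRSP replicate 3 (15) at 3 weeks for SHRSP over WKY, 9 arrays for the age change of SHR over WKY (each array of WKY and SHR at 3 weeks, WKY replicate 2 and SHR replicates 1 and 3 at 6 weeks; 3 to 5) and WKY replicate 2 at 6 weeks for that of SHRSP over SHR (9).

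With labels exchanged at 6 weeks, signs turned for Gstt2 (-0.011), Hmox2 (0.040) and Txndc13 (0.22) in the age change of SHR, for Glrx2 (0.12), Hmox2 (-0.043) and Srxn1 (0.44) in that of SHRSP, for Hmox2 (0.057) and Txndc13 (0.39) in SHR over WKY, for Glrx2 (0.28) and Hmox2 (-0.026) in SHRSP over WKY, and for Glrx2 (0.10), Hmox2 (-0.083) and Txndc13 (-0.22) in SHRSP over SHR, which follows from the exchange. With a replicate block on the replicate number, the counts were 31 and 18 for SHRSP and SHR over WKY and 6 for SHRSP over SHR at 3 weeks, 25, 28 and 8 at 6 weeks, 25, 33 and 12 for age in SHRSP, SHR and WKY, and 8, 9 and 7 for the age-change differences. Same-numbered arrays correlated in 14 of 45 pairs above 0.1, from -0.53 to 0.58, so the numbers were not taken as a pairing. The pairs at 0.58 and 0.56, of SHR with SHRSP at 6 weeks, shared a slide. With the slide as a random block the correlation within slides was 0.364, and the main fit held no slide term. The series table gave no second value, being identical to the scanner values. Leaving out the liver arrays leaves 1 SHR array at 3 weeks, assumed to vary like the other groups. Genes below background in a group have only a bound there, and 12 residual degrees of freedom with 3 arrays a group leave small differences undetectable.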
